A study of Drosophila melanogaster with 6 samples.

Results

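The proteasome subunit genes were taken as every gene whose symbol starts with Prosalpha, Prosbeta, Rpn or Rpt followed by a digit, which gave 47 of the 16493 genes counted. They were measured by droplet single-cell RNA sequencing (3′ UMI counts, where a UMI tags 1 captured transcript) in brains of Appl- flies, genotype Appl[d] w[*], and of control flies, genotype w1118, all aged 10 days as adults. Each genotype had 3 libraries, and each library pooled the brains of 20 male and 20 female flies. Appl[d] removes the middle of Appl, the only fly member of the amyloid precursor protein family, and keeps its last exons, so a 3′ tag of Appl can still be counted. The Appl- flies carry an unnamed w allele and the controls w1118, and the genetic background beyond these alleles cannot be told apart from the deletion.

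The proteasome degrades proteins that carry ubiquitin chains. Its core particle is a barrel of stacked rings: alpha subunits form the outer rings and the gate, beta subunits form the inner rings, and Prosbeta1, Prosbeta2 and Prosbeta5 carry the caspase-like, trypsin-like and chymotrypsin-like protease activities. A regulatory particle caps the barrel. Its base holds the Rpt ATPases, which unfold substrates, with Rpn1 and Rpn2 as scaffolds and Rpn10 and Rpn13 as ubiquitin receptors, and its lid holds Rpn11, which cuts the ubiquitin chain off, among scaffold subunits. The fly genome also holds copies of many subunits, several of which are known from the male germ line. Neurons depend on the proteasome for turnover of synaptic proteins and for clearance of misfolded ones.

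Of the 47 genes, 32 carry the plain name of a subunit and 15 that of a related copy (a T or R in the symbol). After filtering, 25188 cells were kept of 67362 barcodes, 13266 from Appl- and 11922 from control brains, with a median of 2298 to 3178 UMIs per cell by library. The share of barcodes over the mitochondrial limit ran from 31.85% to 84.68% and was highest in control replicate 1, and pairs of libraries shared 2 to 16 barcodes among kept cells. Appl, the targeted gene, had 204, 255 and 233 CPM (the gene's UMIs in every 1000000 gene UMIs, here scaled by TMM, which adjusts for library composition) in Appl- libraries, against 2060, 2313 and 2055 CPM in control libraries (log2 fold change -3.21 ± 0.12 SE, adjusted p = 1.9e-05). Summed fat body markers (9 of 9 genes detected) lay between 96.2 and 148 CPM in Appl- libraries and between 420 and 5307 CPM in control libraries, and summed hemocyte markers (9 of 9 detected) between 58.3 and 72.1 CPM in Appl- and between 116 and 253 CPM in control libraries. Glial markers (10 of 10 detected) reached 285 to 370 CPM in Appl- and 336 to 606 CPM in control libraries. Their part in the differences over all cells was not tested, and the comparison was repeated in neuron-like clusters alone.

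The proteasome subunit genes were present at low, similar levels. Together they gave 106294 UMIs, and the median cell held 3 or 4 of them, depending on the library. 33 members passed the filter on low counts: all 32 with a plain name, and Rpn13R. Leaving out Prosalpha1 and Rpn13R, the other 31 had means over the 6 libraries between 15.7 CPM (Rpn7) and 70.7 CPM (Prosbeta5), with a median of 38.6 CPM. Each transcript is tagged once at its 3′ end, so these levels are not scaled by gene length, although capture can differ between genes.

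**Figure D1:**
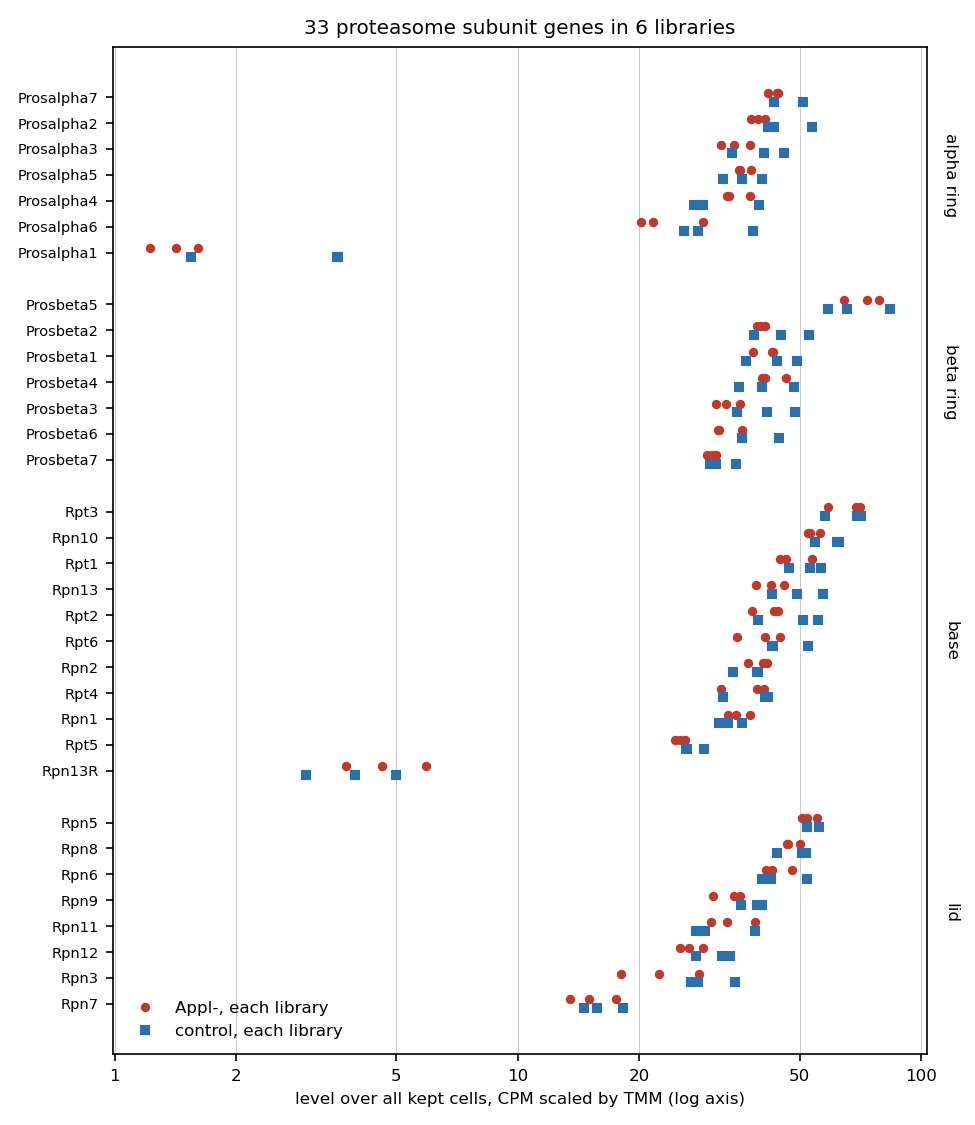
Level of the 33 tested proteasome subunit genes over all kept cells, in CPM scaled by TMM on a log axis, with a point for each of 3 Appl- (circles) and 3 control libraries (squares), grouped by sub-complex. Prosalpha1 and Rpn13R stay below 6 CPM in every library, and all others exceed 13 CPM.

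The catalytic subunit Prosbeta5 was the highest member of the beta ring, with 78.8, 64.2 and 73.2 CPM in Appl- libraries and 83.6, 58.8 and 65.5 CPM in control libraries. The other catalytic subunits were lower: Prosbeta1 had 43.0, 38.2 and 42.6 CPM in Appl- libraries and 49.3, 36.8 and 44.0 CPM in control libraries. Prosbeta2 had 39.1, 40.2 and 41.0 CPM in Appl- libraries and 52.8, 38.5 and 45.0 CPM in control libraries. For all 3 catalytic subunits the genotypes overlapped, and control replicate 1 was the highest library. The lowest beta subunit was Prosbeta7, which helps join the core's inner rings, with 31.0, 29.4 and 30.2 CPM in Appl- libraries and 34.7, 31.0 and 29.9 CPM in control libraries.

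In the alpha ring, Prosalpha7 was highest, with 43.8, 44.2 and 41.6 CPM in Appl- libraries and 50.9, 43.1 and 43.0 CPM in control libraries. Prosalpha1 was far lower than any other plainly named subunit, with 1.42, 1.23 and 1.61 CPM in Appl- libraries and 1.54, 3.55 and 3.58 CPM in control libraries. Prosalpha1 lies on chromosome arm 2R beside CG30382, which RefSeq (Release 6 plus ISO1 MT) names Prosalpha1R. CG30382, which falls outside the naming rule, had 0 UMIs in all 6 libraries, and a 0 allows up to 0.144 to 0.322 CPM at these depths. Cell Ranger does not count reads that map to several genes, so the level of Prosalpha1 is uncertain, and the part of such reads in it was not tested.

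In the base, the ATPase Rpt3 was highest, with 70.4, 58.6 and 68.9 CPM in Appl- libraries and 71.1, 57.6 and 69.2 CPM in control libraries. These libraries fall in the same order within each genotype, with replicate 2 lowest. The lowest member of the base was Rpn13R, a copy of the ubiquitin receptor gene Rpn13, with 5.92, 4.61 and 3.75 CPM in Appl- libraries and 3.95, 2.99 and 4.98 CPM in control libraries. Rpn13R overlaps rg and CG15465 on its own strand on the X chromosome in the BDGP6.54 annotation, so its reads cannot be told apart from theirs with certainty. In the lid, the scaffold Rpn5 was highest, with 52.1, 50.7 and 55.1 CPM in Appl- libraries and 52.1, 55.7 and 52.2 CPM in control libraries. The scaffold Rpn7 was lowest, with 14.99, 13.4 and 17.5 CPM in Appl- libraries and 18.3, 14.6 and 15.7 CPM in control libraries. The difference between the highest and the lowest lid subunit was thus far larger than the spread between libraries of either gene.

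The 14 members that did not pass the filter were all related copies: Prosalpha3T, Prosalpha4T1, Prosalpha4T2 and Prosalpha6T of the alpha ring, Prosbeta2R1, Prosbeta2R2, Prosbeta4R1, Prosbeta4R2, Prosbeta5R1 and Prosbeta5R2 of the beta ring, Rpt3R, Rpt4R and Rpt6R of the base, and Rpn12R of the lid. Together they gave 68 UMIs over the 6 libraries. No copy exceeded 0.311 CPM in a library, the value of Rpt3R in control replicate 3, and Prosalpha6T and Prosbeta4R1 had 0 UMIs in every library. These values rest on few UMIs: Rpt3R had 3, 6 and 1 UMIs in Appl- libraries and 3, 1 and 4 UMIs in control libraries. The copies were therefore not compared between the genotypes. Of the 33 tested members, 16 overlap no other gene in the annotation, 15 overlap a gene on the other strand and 2 overlap a gene on their own strand. Whether the counting used the strand is not given in the sources used here.

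Between Appl- and control brains, no proteasome subunit gene was called as changed over all cells. In edgeR's quasi-likelihood test, 0 of 33 members rose and 0 fell at an adjusted p under 0.05 with a log2 fold change of at least 0.32 in size. Of the 8511 genes tested, 5.95% were called, 3.02% as higher in Appl- (257 genes) and 2.93% as lower (249 genes). DESeq2 also called 0 members, against 10.1% of genes. In sums over all cells, a change in cell makeup and a change per cell cannot be told apart. An unadjusted p under 0.05 was reached by 2 members, Prosalpha1 and Prosbeta3, against 21.3% of all genes. The log2 fold change was below 0 for 25 members and above 0 for 8, with a median of -0.09, against a median of -0.0034 over all genes tested. The members share the same libraries and depth, so this count of directions has no test. In 4 members the genotypes did not overlap, each with lower Appl- values, against 26.8% of all genes. These 4 were named after their values were seen: Prosalpha2 of the alpha ring, Prosbeta6 of the beta ring, the ATPase Rpt5 and the lid scaffold Rpn9. In simulated counts for this comparison, 2% of genes changed by 0.35 on the log2 scale, 48% changed by 1 and 96% changed by 2 were recovered. The simulation gave all genes 1 shared spread between libraries (a coefficient of variation of 0.21). The members' own SE ran from 0.08 to 0.39 with a median of 0.12, so these shares are not rates for the members. Only 4 of the 33 members differed by the 0.32 that a call required.

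**Figure D2:**
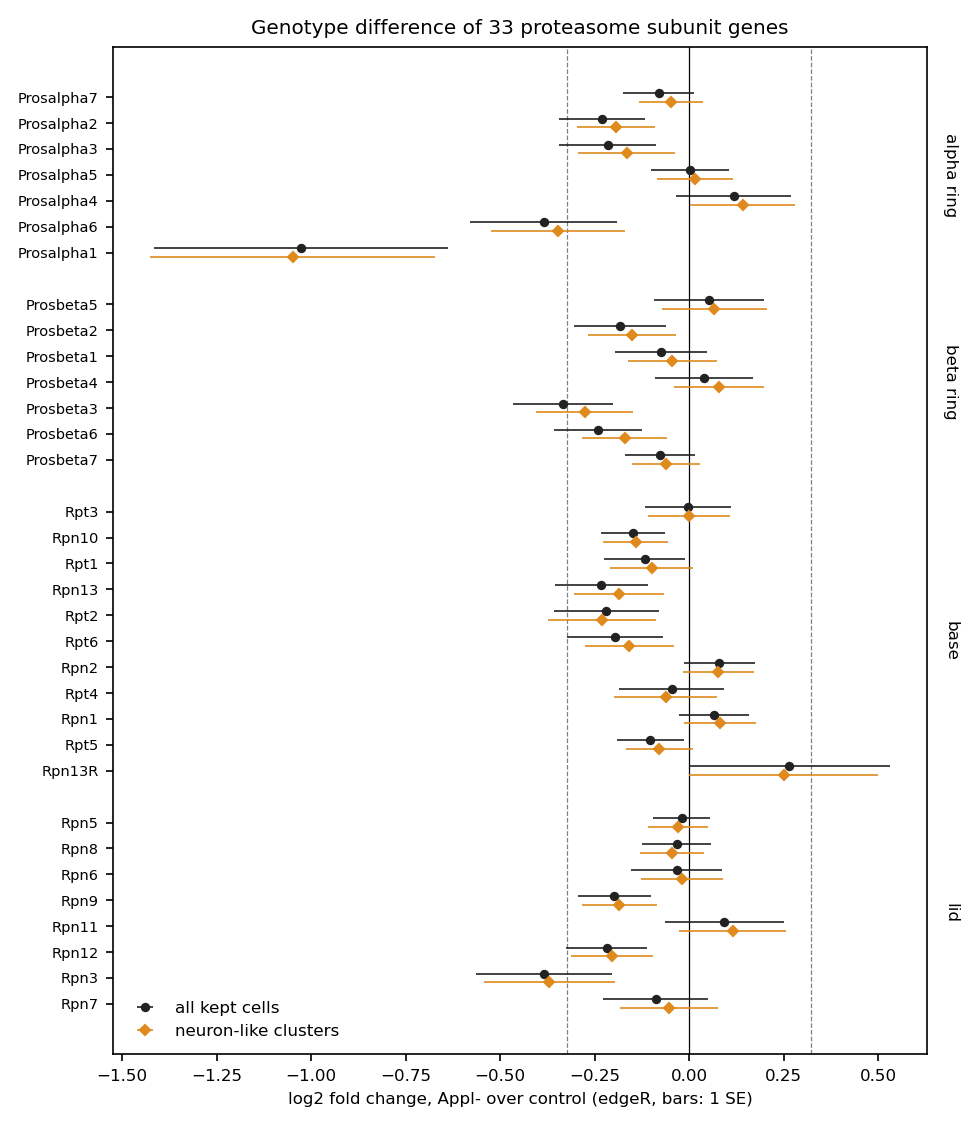
Log2 fold change (Appl- over control) of the 33 tested proteasome subunit genes with bars of 1 SE, over all kept cells (circles) and over neuron-like clusters (diamonds). Dashed lines mark the size of change that a call required, 0.32 on the log2 scale. 25 of 33 genes lie below 0 in each set, and none was called in either.

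Prosalpha1 had the largest absolute difference, on few counts (log2 fold change -1.03 ± 0.39 SE, adjusted p = 0.186 by edgeR). All 3 Appl- libraries and control replicate 1 lay between 1.23 and 1.61 CPM, and the other control libraries stood apart above them. Without control replicate 1, Prosalpha1 was called as lower in Appl- (-1.34 ± 0.29, adjusted p = 0.038), where 7.02% of genes were called and 3.39% were called as lower. The call is therefore set by 1 library, and the same holds in neuron-like clusters (-1.05 ± 0.38, adjusted p = 0.168 with all libraries, and -1.36 ± 0.30, adjusted p = 0.0229 without control replicate 1, where 8.71% of genes were called, 4.01% as lower).

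Prosalpha6, a structural alpha subunit, had 28.8, 20.2 and 21.7 CPM in Appl- libraries and 38.2, 25.8 and 28.0 CPM in control libraries. Appl- replicate 1 lay within the range of the controls, but each Appl- library was below the control library of the same number. The log2 fold change was -0.38 ± 0.19 (adjusted p = 0.312). Every same-numbered pair of libraries deviated together from its group means (r between 0.248 and 0.372), but nothing says that the numbers mark a shared batch. In the fit with a block for replicate number, Prosalpha6 was called as lower in Appl- (-0.38 ± 0.07, adjusted p = 0.0305), 1 member of 33 where 10.8% of all genes were called, 5.91% as lower. The lid scaffold Rpn3 had 28.1, 18.01 and 22.4 CPM in Appl- libraries and 34.4, 26.8 and 27.9 CPM in control libraries. Its genotypes also overlapped, and it too was lower in each numbered pair. The difference was -0.38 ± 0.18 (adjusted p = 0.279), or -0.39 ± 0.09 with the block (adjusted p = 0.0501). Prosbeta3, a structural beta subunit, had 35.4, 31.0 and 32.8 CPM in Appl- libraries and 48.6, 34.9 and 41.5 CPM in control libraries. Its genotypes overlapped slightly, and the difference was -0.33 ± 0.13 (adjusted p = 0.205), or -0.32 ± 0.08 with the block (adjusted p = 0.0654).

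The catalytic subunits did not pass the test. Prosbeta1 differed by -0.07 ± 0.12, Prosbeta2 by -0.18 ± 0.12 and Prosbeta5 by 0.05 ± 0.15 on the log2 scale (adjusted p = 0.802, 0.461 and 0.896 by edgeR). Among the highest members, Rpt3 differed by -0.0025 ± 0.11, Rpn5 by -0.02 ± 0.08 and Prosalpha7 by -0.08 ± 0.09 (adjusted p = 0.996, 0.927 and 0.702). Of the lowest members besides Prosalpha1, which is given above, Prosbeta7 differed by -0.08 ± 0.09, Rpn7 by -0.09 ± 0.14 and Rpn13R by 0.27 ± 0.27 (adjusted p = 0.708, 0.792 and 0.651). By sub-complex, the median log2 fold change was -0.22 over 7 alpha subunits, -0.08 over 7 beta subunits, -0.10 over 11 members of the base and -0.06 over 8 members of the lid. Members below 0 numbered 5 of 7, 5 of 7, 8 of 11 and 7 of 8 in the same order.

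The summed level of all 47 genes was 1262, 1116 and 1235 CPM in Appl- libraries (1205 ± 77.5, SD, n = 3) and 1416, 1213 and 1318 CPM in control libraries (1315 ± 102, SD, n = 3). These sums are CPM without TMM scaling. The genotypes overlapped, since Appl- replicates 1 and 3 lay above control replicate 2, while each Appl- library was below the control library of its number. The difference of the means, -0.13 on the log2 scale, shrank to -0.071 without control replicate 1 and to -0.075 without Appl- replicate 2, and grew to -0.18 without control replicate 2. Mitochondrial UMIs made up 5.80%, 4.36% and 3.83% of the kept cells' gene UMIs in Appl- libraries and 6.80%, 4.70% and 4.51% in control libraries, and replicate 1 was highest in each genotype. The difference moved with the mitochondrial limit: it was -0.084 with the cells over 10% kept and -0.16 at a limit of 5%. Without mitochondrial genes in the total it was -0.14. The core particle gave 0.709, 0.727 and 0.697 UMIs per UMI of the regulatory particle in Appl- libraries and 0.785, 0.674 and 0.697 in control libraries, so the balance of the particles overlapped between genotypes.

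Neurons, which made up 92.9% to 97.7% of the kept cells by library, gave similar counts. In neuron-like clusters 0 of 33 members rose and 0 fell in the edgeR test, against 5.89% of 8258 genes called (3.17% higher, 2.71% lower). DESeq2 called 0 members as well, where it called 8.14% of genes. An unadjusted p under 0.05 was reached by 1 member, against 20.1% of genes, and 25 lay below 0 with a median of -0.06. No member had genotypes that did not overlap, against 25% of genes: Prosalpha2, Prosbeta6, Rpt5 and Rpn9, which separated over all cells, overlapped here. With the replicate block, Prosalpha6 (-0.34 ± 0.07, adjusted p = 0.0279) and Rpn3 (-0.38 ± 0.09, adjusted p = 0.0418) were called as lower in Appl-, 2 of 33 members where 11.9% of genes were called, 6.12% as lower. Without the block, Prosalpha6 differed by -0.35 ± 0.18 and Rpn3 by -0.37 ± 0.17 (adjusted p = 0.334 and 0.285). The summed level in neuron-like clusters was 1255, 1116 and 1232 CPM in Appl- libraries (1201 ± 74.7, SD, n = 3) and 1353, 1170 and 1316 CPM in control libraries (1280 ± 97.0, SD, n = 3).

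Levels across cell types are given as a description, since the clusters were built from the same cells, although the subunit genes were kept out of the genes used for clustering. The 42 clusters held 37 that were neuron-like, and 26 had at least 20 cells in every library. Cluster 23 (316 cells) carried 7 of 10 glial markers, among them repo, the transcription factor of glia, and Eaat1, a glutamate transporter. Its 10 leading genes, among them e, b and Obp44a, held no gene of that list of 10, which does not speak to whether they are glial. All 6 neuronal markers were found in most of its cells, so the name glia-like holds only loosely. Pooled over libraries, repo had 150 CPM in this cluster and 1.57 CPM in neuron-like clusters. elav, the gene of a neuronal RNA-binding protein, had 431 and 672 CPM in the same order. In cluster 23 the 47 genes summed to 1329, 1119 and 1328 CPM in Appl- libraries and 1747, 1435 and 1424 CPM in control libraries, on 28 to 79 cells per library. Every library was above its own neuron-like clusters, and the mean over the 6 libraries was 1.13 times theirs. The Appl- libraries all lay below the control libraries in this cluster (1259 ± 121 against 1535 ± 184 CPM, SD, n = 3 each), as they did in 3 of the 26 clusters, the others being the neuron-like clusters 17 and 9.

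Only 5 members passed the filter in cluster 23, and 0 of them rose or fell in the edgeR test, where 0.963% of 2493 genes were called (0.401% higher, 0.562% lower). DESeq2 called 0, and 0 members had an unadjusted p under 0.05, against 13% of genes. Rpt3 had 15.2, 49.8 and 73.4 CPM in Appl- libraries and 107, 44.9 and 82.3 CPM in control libraries (-0.86 ± 0.54). The ubiquitin receptor Rpn10 differed by -0.66 ± 0.47, Prosalpha7 by -0.58 ± 0.47, Prosbeta1 by 0.29 ± 0.50 and Prosbeta5 by 0.33 ± 0.36, and the genotypes overlapped in each. A test of the genotype effect between cluster 23 and neuron-like clusters called 0 of 5 members and 0% of 2486 genes, with 0 of these members and 9.77% of genes at an unadjusted p under 0.05. The effects were therefore not shown to differ between these classes.

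**Figure D3:**
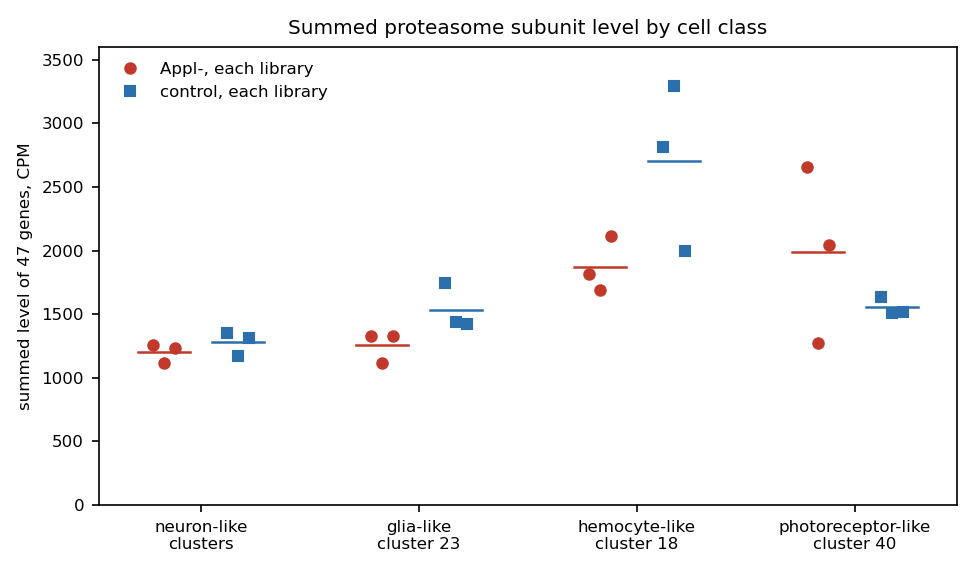
Summed level of the 47 proteasome subunit genes, in CPM, for each of 3 Appl- (circles) and 3 control libraries (squares) in 4 cell classes, with lines at the means. Cluster 18, drawn as hemocyte-like though it also held the glial marker repo, reaches 1687 to 3292 CPM. It lies above neuron-like clusters in every library.

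The highest summed level was found in cluster 18 (405 cells), which carried 4 hemocyte markers: the collagen IV genes Col4a1 and vkg, the scavenger receptor gene crq, and Nplp2. Its summed level was 1816, 1687 and 2113 CPM in Appl- libraries and 2817, 3292 and 1997 CPM in control libraries, on 13 to 133 cells per library. Every library was above its own neuron-like clusters, and the mean was 1.84 times theirs (between 1.66 and 1.92 times when each library was left out in turn). The cluster was not uniform. Hml, which marks hemocytes, had 0, 92.0 and 1696 CPM in Appl- libraries and 471, 766 and 2708 CPM in control libraries, and summed hemocyte markers in Appl- replicate 1 (137 CPM) were within the range of neuron-like clusters (49.4 to 159 CPM). Glial markers summed to 179 to 1139 CPM in cluster 18, against 140 to 360 CPM in neuron-like clusters. Single glial markers differed more: pooled over libraries, repo had 61.2 CPM in cluster 18 and 1.57 CPM in neuron-like clusters. nrv2 did not, with 78.7 and 79.1 CPM. In Appl- replicate 1, where Hml had 0 CPM, repo had 41.0 CPM. A hemocyte name for this cluster thus holds only loosely, and the part of glial cells in its summed level was not tested. Neuronal markers summed to 1828 to 6458 CPM in cluster 18, highest in Appl- replicate 3, against 8204 to 10390 CPM in neuron-like clusters. With 13 cells in Appl- replicate 3, the genotypes were not tested.

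In cluster 18, 29 of the 33 tested members had a mean over the 6 libraries above that of neuron-like clusters, 12 of them at least 2-fold, but only 9 were above in 6 of 6 libraries and 23 in at least 5. With the libraries pooled, where control replicates 1 and 2 hold most of the cells, the counts were 31 and 19. Of the 5558 genes with at least 10 CPM in neuron-like clusters, 46.0% had a higher mean in cluster 18 and 10.5% were at least 2-fold higher. The median ratio of the means was 1.74 over the members and 0.938 over those genes. Prosbeta4, a structural beta subunit, averaged 120 CPM in cluster 18 and 40.6 CPM in neuron-like clusters, with cluster 18 higher in 6 of 6 libraries. The catalytic subunits Prosbeta1 (98.9 against 41.2 CPM) and Prosbeta5 (154 against 69.1 CPM) were also higher in 6 of 6 libraries, and Prosbeta2 (86.0 against 41.9 CPM) in 5 of 6. The lid scaffold Rpn5 (57.8 against 53.0 CPM) was higher in 4 of 6 libraries. The base scaffold Rpn2 (31.6 against 38.4 CPM) and the lid subunit Rpn12 (26.7 against 29.1 CPM) had lower means in cluster 18 and were higher in 2 of 6 libraries each, and Prosalpha1 and Rpn13R, with 1 UMI each in cluster 18, also had lower means. The core particle gave 0.762, 1.2 and 1.22 UMIs per UMI of the regulatory particle in Appl- libraries of cluster 18 and 1.03, 1.11 and 0.795 in control libraries, above the neuron-like clusters of the same library in each case. This was not particular to cluster 18: neuron-like cluster 36 averaged 824 CPM for the core and 715 CPM for the regulatory particle, on 84 cells.

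The other classes held few cells. Cluster 40, photoreceptor-like with 64 cells, summed to 2656, 1270 and 2046 CPM in Appl- libraries and 1633, 1513 and 1520 CPM in control libraries, on as few as 3 cells. Each library was above its neuron-like clusters, and the mean was 1.43 times theirs. The fat body-like cluster 34 held 1, 2 and 0 cells in Appl- libraries and 73, 4 and 43 cells in control libraries, so no comparison was made. Its summed level was 754 and 1314 CPM in the Appl- libraries with cells and 1630, 983 and 1019 CPM in control libraries.

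**Figure D4:**
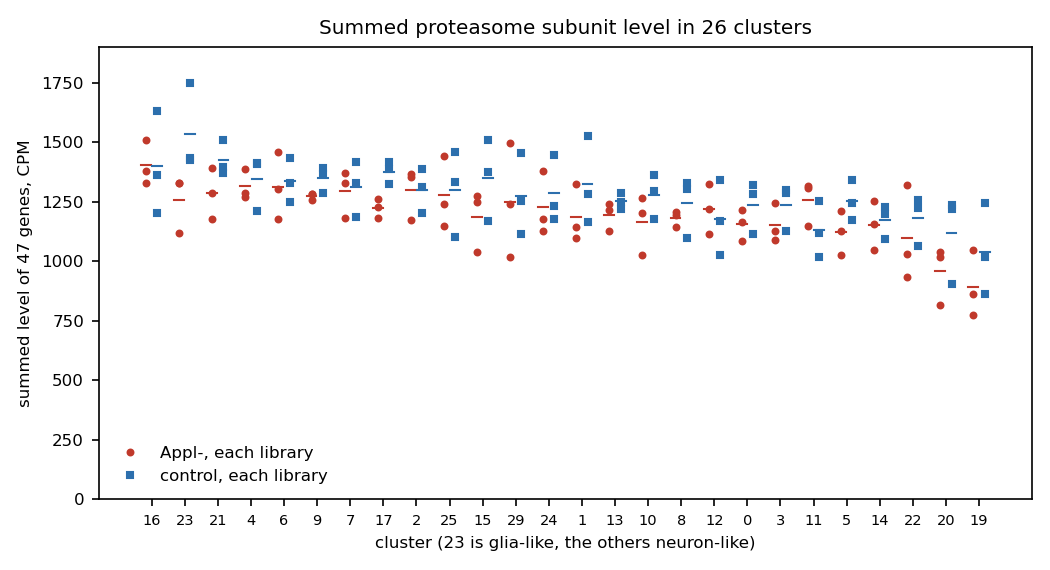
Summed level of the 47 proteasome subunit genes, in CPM, in the 26 clusters with at least 20 cells in every library, ordered by the mean over 6 libraries, with 3 Appl- (circles) and 3 control libraries (squares) and lines at the means. The means run between 967 CPM in cluster 19 and 1402 CPM in cluster 16.

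Among neurons the summed level was nearly even. Over the 26 clusters the mean ran between 967 CPM in cluster 19 and 1402 CPM in cluster 16, 0.78 and 1.13 times the level of all neuron-like clusters. Cluster 19 (386 cells) was Mi1-like, from the homeobox gene bsh and other markers of this medulla interneuron, and had 1047, 773 and 860 CPM in Appl- libraries and 1245, 860 and 1016 CPM in control libraries. Cluster 20, led by the forkhead genes slp1 and slp2, had 1018, 818 and 1039 CPM in Appl- libraries and 1237, 903 and 1219 CPM in control libraries. Clusters 19 and 20 were the only ones of the 26 below the level of all neuron-like clusters in 6 of 6 libraries. Cluster 16 (418 cells) had 1329, 1380 and 1509 CPM in Appl- libraries and 1203, 1360 and 1633 CPM in control libraries, but was above the next cluster in the order in only 3 libraries. Most neighbours in the order did not differ beyond the spread over libraries, the higher one lying above the lower in 2 to 4 of 6 libraries, with cluster 22 over cluster 20 (5 of 6) as the exception. Kenyon cell-like clusters 6 and 10, the intrinsic neurons of the mushroom body, averaged 1325 and 1221 CPM, and the T4/T5-like clusters 3 and 25, motion-detecting neurons of the optic lobe, 1194 and 1287 CPM.

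Within single clusters, 0 of 382 tests of a member in a cluster were called by edgeR, against 2.17% of 85664 gene-by-cluster tests (1.19% higher, 0.982% lower). Of 7053 genes tested in at least 1 cluster, 9.87% were called in at least 1, against 0 members. DESeq2 called 0 as well, and 25 of the 382 reached an unadjusted p under 0.05, against 11.4% of all gene-by-cluster tests. Of these 25, 21 were lower in Appl-. No share by direction over all genes was taken at this threshold, so the split is a description only. At least 1 member passed the filter in 23 clusters. The smallest adjusted p was that of Prosbeta6 in cluster 0 (-0.52 ± 0.14, adjusted p = 0.0977). It was followed by Prosalpha3 in cluster 0 (-0.50 ± 0.15, adjusted p = 0.141) and by the ATPase Rpt6 in cluster 4 (-1.01 ± 0.33, adjusted p = 0.167). These 3 were named after their values were seen. The Appl- mean of the summed level was below the control mean in 23 of 26 clusters and above it in 3, with ratios between 0.82 (cluster 23) and 1.11 and a median of 0.948. All clusters come from the same 6 libraries, so they do not repeat the comparison independently.

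The members varied little together across clusters. Over the 26 clusters, the correlation of log2(CPM + 1) had a median Pearson r of 0.147 over the 528 pairs of tested members. Within sub-complexes the median was 0.118 in the alpha ring, 0.149 in the beta ring, 0.193 in the base and 0.151 in the lid, and between sub-complexes it ran from 0.0948 to 0.202. The clusters share libraries, and a subunit at 40 CPM in a small cluster rests on few UMIs, so these weak values are a description only. Summed levels varied together more: the core and the regulatory particle had r = 0.724 over the same 26 clusters. The members nearest to the sum of the others were Prosbeta4 (r = 0.622), the ubiquitin receptor Rpn13 (0.596), Rpn5 (0.563) and Prosalpha7 (0.557), and the farthest were Rpn13R (-0.186), Rpn2 (-0.014), Prosbeta7 (0.0967) and Prosalpha1 (0.113). The summed level had r = -0.279 with the median UMIs per cell of the clusters and 0.319 with their mitochondrial share.

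Of 2651 other genes with a mean of at least 50 CPM over the clusters, the 10 whose pattern was most like the summed members were Akap200 (r = 0.754), Csk (0.736), sina (0.733), CG8974 (0.715), Invadolysin (0.714), Cyt-b5 (0.712), nrv2 (0.691), CG12384 (0.673), Sec61gamma (0.662) and Rip11 (0.650). The median over all these genes was 0.0378. Akap200 anchors protein kinase A, Csk is a kinase of Src family kinases, sina encodes a ubiquitin ligase, and nrv2 encodes a subunit of the sodium pump and was itself among the glial markers. Clusters were the points in each case, 26 in number, with no test.

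No gene of a list of factors that work around the proteasome was called as changed. Of the 28 genes listed, 26 were matched (PA200 and Ecm29 were not), and all of these were tested over all cells. In the edgeR test 0 rose and 0 fell, against 5.95% of all genes called. An unadjusted p under 0.05 was reached by 1 gene of the list, against 21.3% of all genes. That gene was maf-S, partner of cnc, the transcription factor known to drive proteasome genes when proteasome activity is limiting. maf-S had 126, 116 and 119 CPM in Appl- libraries and 161, 136 and 156 CPM in control libraries, with all Appl- libraries below all control libraries (-0.33 ± 0.09, adjusted p = 0.0881). It was called as lower in Appl- by DESeq2 (-0.33 ± 0.11, adjusted p = 0.0204) and with the replicate block (-0.33 ± 0.06, adjusted p = 0.0331), so the call depends on the model. DESeq2 called 5.8% of all genes as lower and the block fit 5.91%. In neuron-like clusters both called maf-S too (adjusted p = 0.0293 and 0.0252), where 3.88% and 6.12% of genes were called as lower. edgeR without control replicate 2 also called maf-S there (-0.43 ± 0.09, adjusted p = 0.045), among 175 genes called as lower. cnc itself had 88.6, 93.5 and 103 CPM in Appl- libraries and 76.6, 90.3 and 82.4 CPM in control libraries (0.19 ± 0.09, adjusted p = 0.304). In neuron-like clusters cnc had 87.3, 92.5 and 101 CPM in Appl- libraries and 70.2, 84.0 and 79.5 CPM in control libraries. There the genotypes did not overlap, against 25% of genes, and edgeR did not call cnc (0.26 ± 0.10, adjusted p = 0.187). With maf-S it made 2 listed genes at an unadjusted p under 0.05 there, against 20.1% of genes.

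After maf-S, the listed genes with the largest absolute differences did not pass the test over all cells either, and their genotypes overlapped. The chaperone gene Hsp83 had 2294, 1907 and 1589 CPM in Appl- libraries and 2094, 1311 and 1266 CPM in control libraries (0.31 ± 0.22, adjusted p = 0.508). In neuron-like clusters it differed by 0.30, and without control replicate 1 it was called as higher in Appl- (0.56 ± 0.15, adjusted p = 0.0453). That fit called 8.71% of all genes in either direction. The deubiquitinase gene Uch-L5 had 23.7, 21.9 and 19.4 CPM in Appl- libraries and 19.7, 17.1 and 18.7 CPM in control libraries (0.23 ± 0.11, adjusted p = 0.30). ref(2)P, the fly p62 and a receptor for selective autophagy, had 145, 114 and 112 CPM in Appl- libraries and 177, 132 and 124 CPM in control libraries (-0.23 ± 0.17, adjusted p = 0.509). Sem1, a small lid subunit outside the naming rule, had 53.6, 48.2 and 47.5 CPM in Appl- libraries and 60.7, 53.6 and 57.7 CPM in control libraries (-0.20 ± 0.09, adjusted p = 0.24). The assembly factor Pomp differed by 0.03 ± 0.09, the regulator PI31 by 0.0092 ± 0.08 and the activator REG by -0.06 ± 0.10 (adjusted p = 0.922, 0.969 and 0.825). Over the 26 genes the median log2 fold change was 0.01.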

How the data were processed

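UMI counts per gene and barcode were deposited by the authors, made with Cell Ranger (version 6.0 in the submitters' processing notes) and not normalized. The genome build is not given in the sources used here, and no coordinates are printed. No deposited column of values was left unused. Barcodes were kept as cells from 200 detected genes up and with no more than 10% mitochondrial UMIs, 3154 to 6461 per library (9318086 to 20896015 gene UMIs). Scrublet marked 4 cells (0.0159%) and so did not work, and doublets were not removed. Clustering used scanpy 1.11.5 and leidenalg 0.10.2 (2000 variable genes without subunit and pathway genes, 30 components, 20 neighbours, resolution 1). Counts summed per library were tested over all genes with edgeR 4.0.16 in R 4.3.3 (quasi-likelihood, TMM, filterByExpr, Benjamini-Hochberg adjusted p under 0.05 and a log2 fold change of 0.32 in size). A change is Appl- over control, and ± after a log2 value is 1 SE. The fits were tested on simulated data.

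Alternatives were DESeq2 1.42.0, other scalings, filters, cell limits, clusterings, thinning to 500 UMIs, the replicate block and leaving out each library. Same-numbered libraries deviated together from their group means (r of 0.300, 0.248 and 0.372 over all cells). The numbers come from the sample titles, and nothing says that they mark a shared batch. Libraries of pooled brains are the replicates, and p-values measure only the spread between them. Libraries of 1 genotype differed by 11 to 70.8 chi-square units per degree of freedom, so none repeats another. Named were the highest and lowest member and the one with the largest change in each sub-complex, the catalytic subunits, each member called in any fit, the 5 pathway genes with the largest changes and the 10 genes most like the members. Further names rest on values already seen. The members and lists were chosen with earlier results of these data known.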

Additional observations from a re-analysis of the deposited data

How the results depend on the processing

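Over all cells 0 members were called in 15 of 17 alternatives, and in neuron-like clusters in 12 of 14. The replicate block called 1 member over all cells and 2 in neuron-like clusters. Leaving out 1 library gave 0 to 1 called member in each set, the 1 being Prosalpha1 without control replicate 1. In cluster 23, in single clusters and in the test between classes, no alternative called a member; at Leiden resolution 0.5 the cluster with 7 glial markers also carried 4 hemocyte markers, had no name and gave no glial value. Of the pathway list over all cells, 1 gene, maf-S, was called by DESeq2 and 1 with the replicate block. In neuron-like clusters maf-S was also called without control replicate 2, and Hsp83 without control replicate 1. Among 13 named members, 15 of 207 values under alternatives changed sign. These were Rpt3 with no filter on low counts (0.0014), with the replicate block (0.00091), at a mitochondrial limit of 5% (0.019) and when libraries were left out (-0.098 to 0.084), and Prosbeta5 after thinning (-0.016) and when libraries were left out (-0.059 to 0.21). When libraries were left out, Prosalpha7 (-0.13 to 0.0053), Prosbeta1 (-0.19 to 0.029), Rpn5 (-0.049 to 0.014) and Rpn7 (-0.19 to 0.0064) also changed sign. The cause was not tested. The members' median log2 fold change over all cells stayed below 0 in each refit over all genes (-0.17 to -0.036). Calls over all genes numbered 506 over all cells, 915 with the replicate block, 857 by DESeq2, 330 at a mitochondrial limit of 5%, 271 after thinning and 159 to 605 with 1 library left out. In neuron-like clusters they numbered 486, 982 with the block and 215 to 728 with 1 library left out, and in cluster 23 they numbered 24, 114 with the block, 252 with no filter and 7 to 168 with 1 library left out.

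Most members held 13 to 84 CPM over all cells. In simulated counts, 6% of genes changed by 0.5 on the log2 scale were recovered over all cells and 10% in neuron-like clusters. In cluster 23, 12% of genes changed by 1 and 74% changed by 2 were recovered. Each simulation gave all genes 1 shared spread between libraries, so these shares are not rates for the members. The part of depth in these shares was not tested. UMI counts of cells that share a library are not independent, and limits from a count of 0 cover counting error only. The pathway list under alternatives and the ranges over left-out libraries for cell type levels, and the member means over libraries, were added after seeing the data; the median r over pairs of members ran from 0.103 to 0.162 across left-out libraries.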
